A study of Homo sapiens with 4 samples.

Results

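Voltage-gated calcium channel genes (symbol prefix CACN), potassium channel genes (KCN) and sodium channel genes (SCN, which includes the epithelial sodium channel) were examined as 1 group of cation channel subunits. Members were all protein-coding genes whose symbol starts with one of these prefixes. They numbered 141 of the 60614 gene IDs counted in each library. One of them, SCNM1, matches the prefix but codes for a splicing factor and no channel. The pore-forming alpha subunits of these channels open a path for calcium, potassium or sodium ions across the membrane, and most of them open when the membrane potential changes. Auxiliary subunits bind the pore and set how much of it reaches the membrane and how it gates. Calcium entry through such pores also acts as an intracellular signal, and potassium channels hold the resting potential, which in epithelial cells bears on cell volume and ion transport.

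RNA-seq libraries came from DU145, an established human prostate cancer cell line, with 2 from cells labelled wild-type and 2 from cells labelled SPOP-F133V. SPOP is an adaptor that brings substrates to a CUL3-based ubiquitin ligase, and the labels name F133V as its mutant form. The labels do not say how the mutant cells were made, whether they are 1 clone or a pool, or whether the 2 replicates are separate cultures. The spread behind each p-value may therefore be technical. All cells were grown in the same medium with serum, and the labels name no treatment. Each library had between 35173245 and 39642063 reads in genes. SPOP itself stood at 1171 and 1151 CPM in the F133V libraries and at 844 and 906 CPM in wild-type, a log2 difference of 0.41 ± 0.05 (SE). CPM is a gene's count after TMM scaling brings all libraries to the same total. Counts per gene do not separate mutant from wild-type SPOP transcripts, so this level does not test the labels.

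Epithelial markers were abundant, with a summed level of 2273 and 2474 CPM in F133V and 1852 and 1851 CPM in wild-type, and 6 of 6 were called higher in F133V. The 7 prostate luminal markers summed to 22.2 and 18.4 CPM in F133V against 25.3 and 24.8 CPM in wild-type. The 1 of them that was tested was called lower (-0.38 on the log2 scale, GC-adjusted -0.35 and also called). The prostate luminal markers KLK2 and KLK3 had 0 reads in every library. Of the other prostate luminal markers, HOXB13 had 60 reads in F133V replicate 1, 2 in F133V replicate 2 and 0 in both wild-type libraries. None of 4 basal markers had enough reads to test. Summed levels of muscle markers were 2.45 and 2.32 CPM against 1.32 and 1.60 CPM in wild-type, with MYH7 at 0. Of these markers, 2 of 2 tested were called higher, without and with the GC offset described below. Summed levels of hematopoietic markers were 2.67 and 3.32 CPM against 1.63 and 2.10 CPM. CD3E and HBB were at 0 and PTPRC at 1 read in all, and 2 of 2 tested markers were called higher (GC-adjusted 1). Fibroblast and endothelial markers summed to 1.33 and 1.81 CPM against 0.99 and 0.73 CPM, with DCN and LUM at 0. Of 3 tested, VWF (log2 2.07, GC-adjusted 1.93) and KDR (1.28, GC-adjusted 1.35) were called higher, with 31 and 37 reads in all. Of 11 neuroendocrine and neuronal markers, CHGB, INSM1 and STMN2 were at 0, and ENO2 made up most of a sum of 189 and 198 CPM against 144 and 143 CPM. ENO2 was the 1 marker of that list called higher (0.49 on the log2 scale), while SYT1 (-0.61, GC-adjusted -0.22 and not called) and NCAM1 (-0.97, GC-adjusted -0.95) were called lower. Over all tested genes, 27.2% were called higher and 27.6% lower. Markers with few reads, such as VWF with 4 and 2 reads in wild-type, pass the filter on low counts through the genotype where they are higher. Several of these sums moved with genotype, and their part in the channel results was not tested.

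Channel genes were read at low levels, and those that could be tested were mostly higher in the F133V libraries. Of the 141 members, 25 had 0 reads in all 4 libraries, 49 had reads but too few to test, and 67 passed the filter on low counts. In edgeR's quasi-likelihood test, 44 of the 67 were higher in F133V, 4 were lower and 19 were not called at a Benjamini-Hochberg adjusted p of 0.05. Over all tested genes, 54.8% were called, 27.2% higher and 27.6% lower. The split over all genes, 4763 higher and 4841 lower, became 6462 and 3831 with upper-quartile scaling, under which 48 members were higher and 4 lower. The members' median log2 fold change was 0.54, beside 0.02 for all tested genes. A total of 15 members were called with a rise of at least 2-fold and 2 with a fall of at least 2-fold, beside 4.18% and 2.81% of all tested genes. The 2 groups of libraries did not overlap for 57 members, 49 with F133V above and 8 below, beside 78% of all tested genes. A gene with few reads passes the filter through the genotype where it is higher, so the counts describe the tested members only.

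Fold changes of all genes followed GC content, with a median log2 fold change of -0.64 in the lowest and 0.34 in the highest of 10 equal bins. The tested members had a median GC content of 56.9%, beside 48.8% for all tested genes. The comparison was therefore also fitted with an offset for transcript GC content and length, called GC-adjusted below, which also removes any genotype difference that follows GC content. In that fit 37 members were higher, 4 lower and 26 not called, with a median of 0.43, beside 52.2% called, 27.6% higher and 24.5% lower, of all genes in that fit. Calls in the same direction in both fits came to 35 higher and 3 lower members, beside 17.4% and 14.7% of all tested genes. No member was called in opposite directions by the 2 fits, beside 3.73% of all tested genes, 10 were called only without the offset and 3 only with it. With DESeq2 in place of edgeR, 28 members were higher and 4 lower. Without F133V replicate 1, which held the HOXB13 reads, 42 were higher and 5 lower. Leaving aside, as a choice made after seeing the data, 8 tested members that share over 10% of their exonic bases with other genes, KCNMB3, KCNH1, KCNK15, KCNJ4 and KCNE3 among them, 39 were higher and 3 lower.

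**Figure D1:**
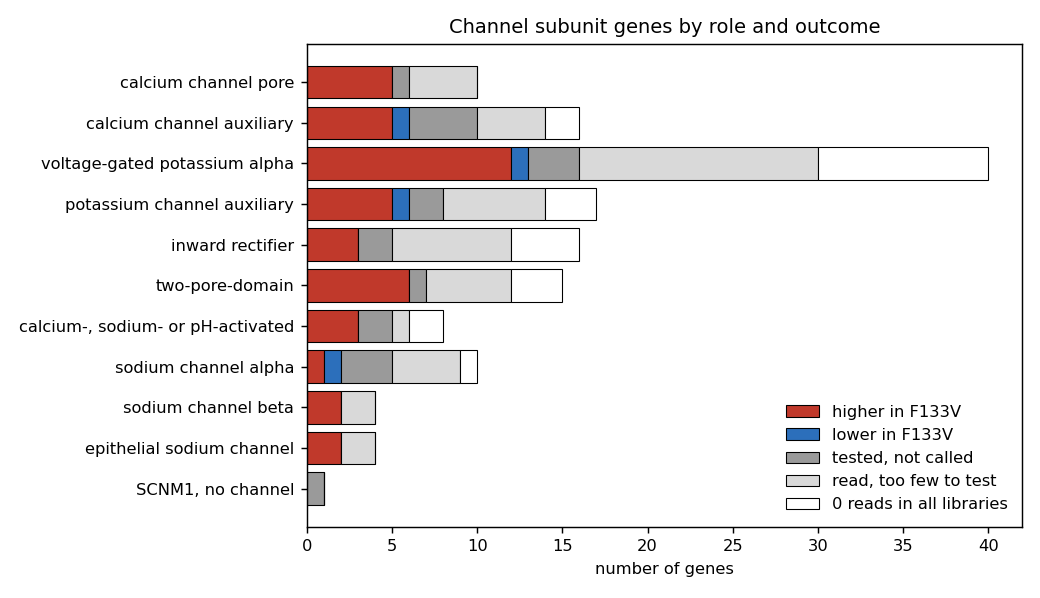
Number of member genes in each role (horizontal axis), split by outcome in the comparison without the GC offset. Of 141 genes, 44 were higher in F133V, 4 lower, 19 tested and not called, 49 read too rarely to test and 25 at 0 reads.

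**Figure D2:**
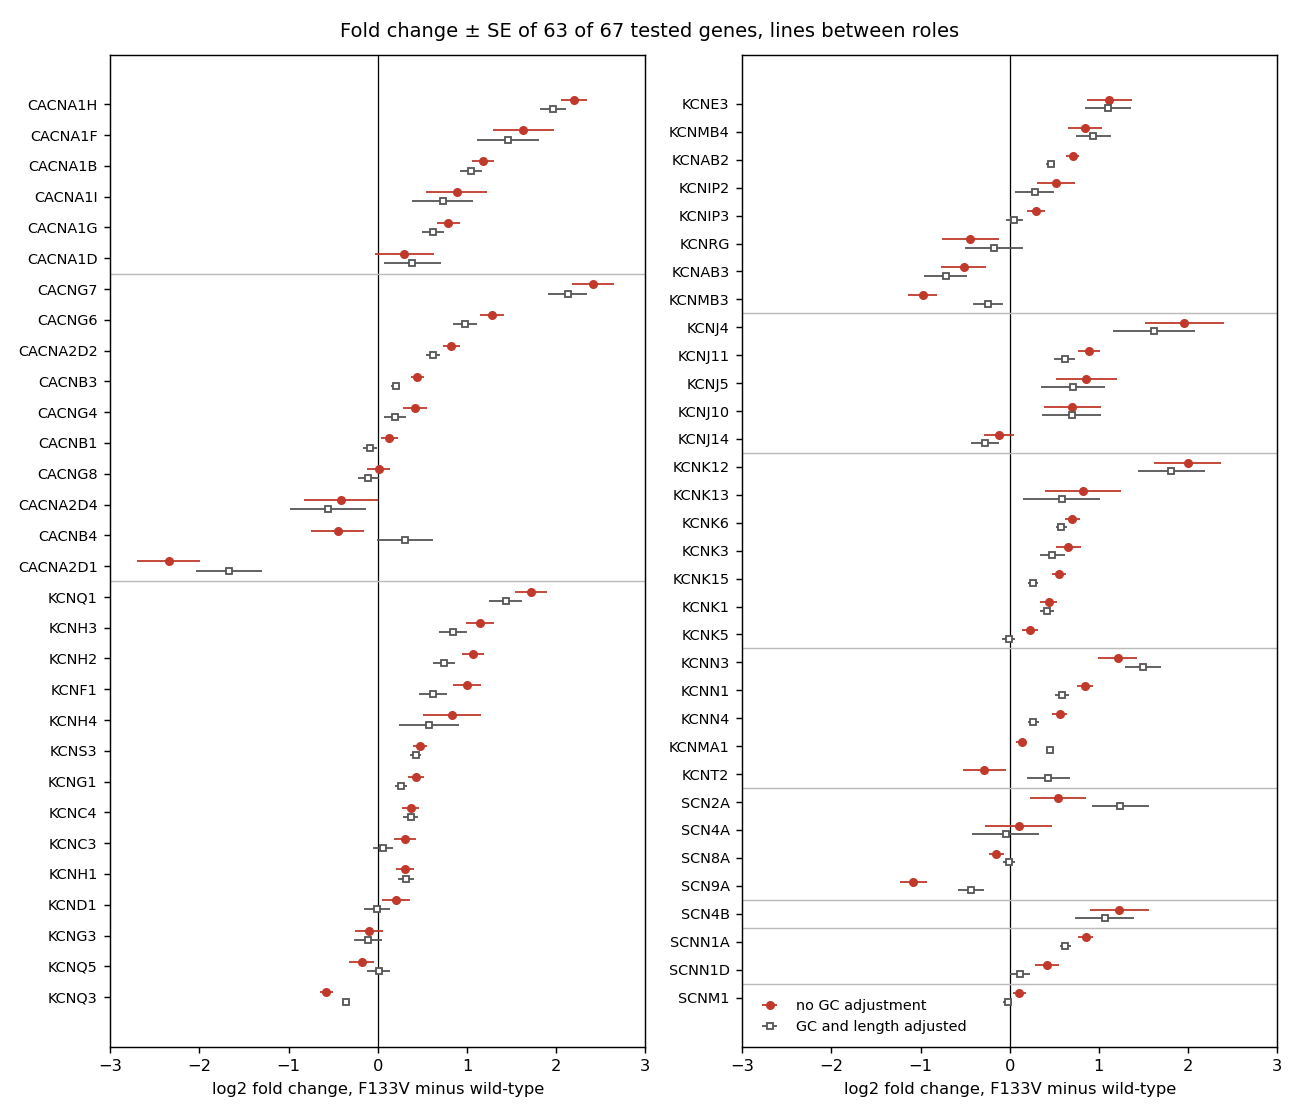
Log2 fold change, F133V minus wild-type, of each tested gene shown, 63 of the 67, with its standard error, without (filled circles) and with (open squares) the offset for GC content and length; horizontal lines separate roles. Most points lie to the right of 0 in both fits, and CACNA2D1 lies farthest to the left.

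Counts by class stand beside 27.2% higher and 27.6% lower over all tested genes, or 27.6% and 24.5% in the GC-adjusted fit. The calcium channel pores, alpha-1 subunits, were higher in F133V for 5 of the 6 tested genes out of 10 in all (GC-adjusted 4). CACNA1H (ENSG00000196557.13, chr16:1153121-1221772 on GRCh38), the pore of a low-voltage-activated T-type channel, had 273 and 249 reads in F133V and 64 and 54 in wild-type. These gave 7.44 and 7.06 CPM against 1.63 and 1.51 CPM, so both F133V libraries lay far above both wild-type libraries. The ratio of means was 4.61, and the log2 fold change was 2.20 ± 0.14 (SE, 2 libraries a group; edgeR adjusted p = 3.29e-10; GC-adjusted 1.96). CACNA1G, the pore of another T-type channel, rose by a smaller 0.79 ± 0.13, from 3.36 and 3.33 CPM to 5.58 and 6.01 CPM.

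Among high-voltage-activated pores, CACNA1B and CACNA1F rose. CACNA1B (chr9:137877789-138124624), the N-type pore best known from presynaptic terminals, stood at 6.54 and 7.20 CPM in F133V and at 3.06 and 3.0 CPM in wild-type. Its log2 fold change was 1.18 ± 0.13 (edgeR adjusted p = 1.70e-07; GC-adjusted 1.05). CACNA1F, the L-type pore of photoreceptors, had 0.71 and 0.96 CPM against 0.23 and 0.31 CPM, a log2 fold change of 1.63 ± 0.34. The third T-type pore, CACNA1I, was called higher without the GC offset but not with it (0.88 ± 0.34, GC-adjusted 0.73). CACNA1D, an L-type pore, was not called, and its F133V libraries, at 0.95 and 0.48 CPM, spanned the wild-type values of 0.51 and 0.67 CPM. CACNA1A, CACNA1C, CACNA1E and CACNA1S had between 1 and 13 reads in all. Per kilobase of exon, CACNA1H and CACNA1B had the highest mean levels of the tested calcium pores, at 0.51 and 0.50 CPM per kilobase, which is near the median of 0.57 for all tested members and below that of 3.37 for all tested genes.

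Among calcium channel auxiliary subunits, 5 of 10 tested genes rose and 1 fell (GC-adjusted 4 and 1), and the alpha-2-delta subunits went in opposite directions. Alpha-2-delta proteins lie outside the membrane, are carried with the pore to the cell surface and bind gabapentin in the case of CACNA2D1 and CACNA2D2. CACNA2D1 (chr7:81946444-82443798) had 0.24 and 0.14 CPM in F133V and 0.94 and 1.06 CPM in wild-type, a log2 fold change of -2.34 ± 0.35 (edgeR adjusted p = 1.12e-05; GC-adjusted -1.67, and -1.44 without F133V replicate 2 as well). CACNA2D2 had 14.9 and 14.7 CPM in F133V against 8.13 and 8.6 CPM, a log2 fold change of 0.82 ± 0.09 (GC-adjusted 0.62). In neither gene did the genotypes overlap, which for CACNA2D1 was a condition for naming it among the largest falls. The third tested gene of this kind, CACNA2D4, was not called (-0.41 ± 0.42), and CACNA2D3 had 15 reads in all. CACNA2D2 shares 9.59% of its exonic bases with genes of the other strand, and CACNA2D1 shares none.

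The gamma subunits include CACNG7, which is also known to bind AMPA-type glutamate receptors. CACNG7 (chr19:53909335-53943941) stood at 3.02 and 3.68 CPM in F133V and at 0.43 and 0.84 CPM in wild-type. Its fold change was the largest of the tested members without the GC offset, 2.41 ± 0.23 on the log2 scale (edgeR adjusted p = 4.01e-08; GC-adjusted 2.13). Its wild-type libraries differed from each other, and with the GC offset and without wild-type replicate 1 the value was 1.71. CACNG6 (chr19:53992288-54012669) had 5.48 and 5.95 CPM against 2.24 and 2.47 CPM, a log2 fold change of 1.28 ± 0.14 (GC-adjusted 0.98). CACNG8 (chr19:53963040-53990215), which lies between them and also binds AMPA-type receptors, was not called and read 4.63 and 4.87 CPM against 4.61 and 4.85 CPM. Of these 3 adjacent genes, the outer ones were called higher and the middle one was not, a difference that was not itself tested. CACNG4 was called without the GC offset but not with it (0.42 ± 0.14, GC-adjusted 0.19). The beta subunit CACNB3, which binds the pore from inside the cell, had the highest mean level per kilobase of this class, 4.47 CPM per kilobase. It read 35.6 and 38.0 CPM in F133V and 27.8 and 26.3 CPM in wild-type, a log2 fold change of 0.44 ± 0.08 (GC-adjusted 0.20), and with the offset and without wild-type replicate 2 it was not called (0.16). The beta subunits CACNB1 and CACNB4 were not called.

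Voltage-gated potassium channel alpha subunits are the largest class, with 40 genes. Of these, 10 were at 0, 14 had too few reads to test, and of 16 tested 12 rose and 1 fell (GC-adjusted 10 and 1). Within the KCNQ family, which includes the cardiac and epithelial slow-current channel KCNQ1 and the neuronal M-current subunits KCNQ3 and KCNQ5, directions differed. KCNQ1 (chr11:2444684-2849110) had 3.79 and 3.49 CPM in F133V against 1.22 and 0.98 CPM in wild-type, a log2 fold change of 1.71 ± 0.18 (edgeR adjusted p = 1.11e-07; GC-adjusted 1.43). Both F133V libraries lay above both wild-type libraries, which was a condition for naming KCNQ1 among the largest rises.

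KCNQ3 went the other way. It read 40.4 and 37.6 CPM in F133V and 58.6 and 58.0 CPM in wild-type. The groups did not overlap, a condition for naming it among the largest falls. Its log2 fold change was -0.58 ± 0.07 (edgeR adjusted p = 8.79e-07, GC-adjusted -0.36). Per kilobase KCNQ3 had the second highest mean level of the tested voltage-gated alpha subunits, 3.85 CPM per kilobase, after KCNS3 with 6.86. KCNQ1 stood at 0.53 CPM per kilobase. KCNQ5 was not called (-0.18 ± 0.14).

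KCNS3 is an electrically silent subunit that modifies the channels it joins. It read 24.1 and 25.9 CPM against 18.1 and 17.9 CPM, a log2 fold change of 0.47 ± 0.08 (GC-adjusted 0.42). The silent subunits KCNF1 (1.00 ± 0.16, GC-adjusted 0.62) and KCNG1 (0.43 ± 0.09, GC-adjusted 0.26) were also called higher, and KCNG3 was not called. Of the KCNH genes, KCNH2, which codes for the hERG channel of cardiac repolarisation, rose by 1.07 ± 0.13 (GC-adjusted 0.74). It went from 2.98 and 2.94 CPM to 6.13 and 6.29 CPM. KCNH3 (1.15 ± 0.16, GC-adjusted 0.84), KCNH4 (0.83 ± 0.32) and KCNH1 (0.30 ± 0.10, GC-adjusted 0.32) were called higher as well. KCNH4 was called without the GC offset but not with it (GC-adjusted 0.57). The KCNA family, the Shaker-type channels, was almost unread, with KCNA1, KCNA3, KCNA4, KCNA5 and KCNA10 at 0 reads and KCNA2 and KCNA7 at 1 and 8 reads in all. KCNA6 was also at 0, but all its exonic bases are shared with GALNT8, so its count says nothing of its level.

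**Figure D3:**
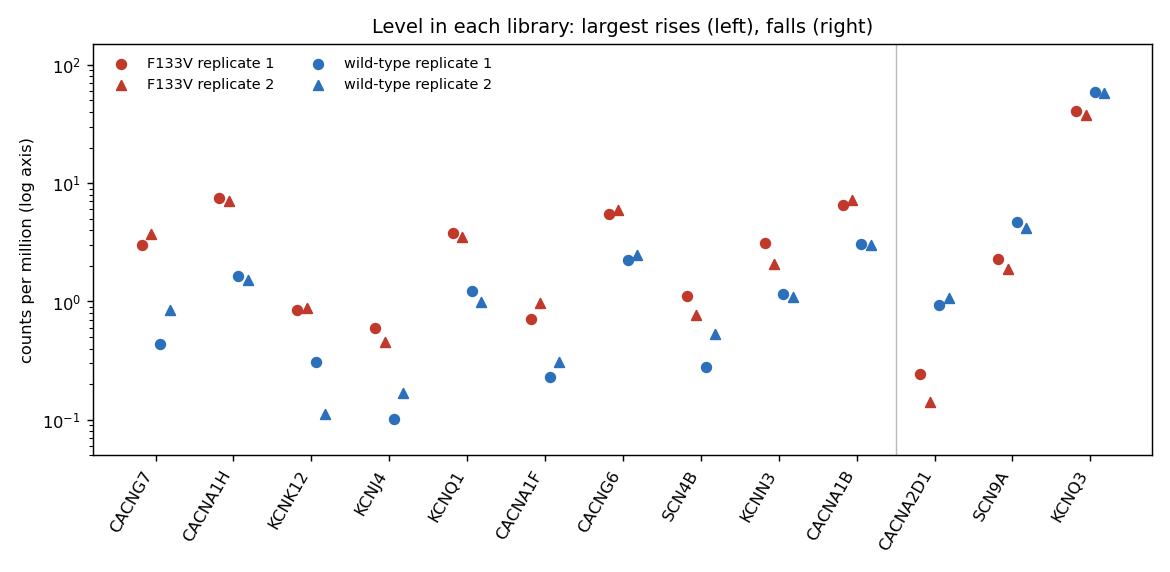
Level of 10 genes of the largest rises and 3 of the largest falls in each of the 4 libraries, in CPM on a log axis. Red marks F133V, blue wild-type, circles replicate 1 and triangles replicate 2. In the 10 genes on the left both F133V points lie above both wild-type points, and in the 3 on the right both lie below. The genes were chosen for groups that do not overlap, so this separation follows from the choice. Of all tested genes, 78% have groups that do not overlap.

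Potassium channel auxiliary proteins gave 5 rises and 1 fall in 8 tested genes. With the GC offset they gave 3 rises and 1 fall, the fall in another gene. KCNAB2, a cytoplasmic beta subunit of Shaker-type channels, had the highest mean level per kilobase among them. It read 37.9 and 40.8 CPM in F133V and 24.6 and 23.6 CPM in wild-type, a log2 fold change of 0.70 ± 0.08 (GC-adjusted 0.46). KCNIP3, a calcium-binding protein that binds Kv4 channels and is also known as a transcriptional repressor, was called at 0.29 ± 0.10, but its GC-adjusted value was 0.05 and it was not called without wild-type replicate 1 (0.24) or replicate 2 (0.34). KCNE3, a partner of KCNQ1 in epithelia, rose by 1.12 ± 0.26, from 0.66 and 0.53 CPM to 1.42 and 1.19 CPM. The fall without the GC offset was KCNMB3, a beta subunit of the large-conductance calcium-activated channel, at -0.98 ± 0.17. It was not called in the GC-adjusted fit (-0.24, adjusted p = 0.239), and 47.5% of its exonic bases are shared with other genes, PIK3CA among them. KCNAB3 read 0.68 and 1.19 CPM in F133V against 1.40 and 1.26 CPM in wild-type. It was not called without the GC offset (-0.52 ± 0.25) but called lower with it (-0.72). KCNMB3 and KCNE3 were chosen for mention after their values were seen, as were CACNA1G, CACNA1D, CACNA1I, CACNA2D2 and the other genes given here that are not among the largest changes or the highest levels of a role.

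The calcium-activated potassium channels of the KCNN family rose in all 3 tested genes, while KCNN2 was at 0 reads. These channels open on intracellular calcium through bound calmodulin. KCNN4 (chr19:43766533-43781261), the intermediate-conductance channel of epithelia and blood cells, read 24.7 and 28.2 CPM against 18 and 17.9 CPM, a log2 fold change of 0.56 ± 0.08 (GC-adjusted 0.26). KCNN1, a small-conductance channel, read 15.9 and 17.5 CPM against 9.22 and 9.33 CPM, a log2 fold change of 0.84 ± 0.09 (GC-adjusted 0.59). KCNN3, also of small conductance, read 3.11 and 2.07 CPM against 1.15 and 1.09 CPM, a log2 fold change of 1.21 ± 0.22. KCNN3 transcripts have a GC content of 44.4%, and its GC-adjusted value was larger, 1.49. KCNMA1, the large-conductance channel, read 85.1 and 83.1 CPM against 76.0 and 77.3 CPM and was not called without the GC offset (0.13 ± 0.06) but called with it (0.45). Over all alternatives KCNMA1 was called in 9 of 16.

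Two-pore-domain (KCNK) channels, which carry background potassium current, rose in 6 of 7 tested genes of 15 (GC-adjusted 5). KCNK15 had the highest mean level per kilobase of any channel member, 9.23 CPM per kilobase. It read 27.7 and 29.3 CPM against 19.5 and 19.4 CPM, a log2 fold change of 0.55 ± 0.08 (GC-adjusted 0.26), and 21.7% of its exonic bases are shared with genes of the other strand. KCNK1 read 17 and 15 CPM against 11.4 and 12.2 CPM, a log2 fold change of 0.44 ± 0.09 (GC-adjusted 0.42). KCNK12, reported as a silent member of the family, had the largest rise of the class, from 0.31 and 0.11 CPM in wild-type to 0.84 and 0.88 CPM (2.0 ± 0.38). Its wild-type values differed widely, and the fold change ran from 1.29 with the GC offset and without wild-type replicate 2 to 2.90 without wild-type replicate 1.

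Of the 16 inward rectifiers (KCNJ), 4 were at 0 and 5 were tested, of which 3 rose (GC-adjusted 2). KCNJ11, the pore of the ATP-sensitive channel, read 7.11 and 7.57 CPM in F133V against 3.62 and 4.32 CPM in wild-type, a log2 fold change of 0.89 ± 0.12 (GC-adjusted 0.62). KCNJ4 (chr22:38426327-38455199), a strong inward rectifier, had 0.60 and 0.45 CPM against 0.10 and 0.17 CPM, a log2 fold change of 1.96 ± 0.44. The call for KCNJ4 was lost with DESeq2 (1.95), and with the GC offset without F133V replicate 1 (1.27) or without wild-type replicate 1 (1.28). KCNJ14 was not called, and its libraries overlapped at 2.34 and 3.15 CPM against 2.75 and 3.22 CPM.

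Sodium channel alpha subunits, which carry the upstroke of action potentials in excitable cells, were tested for 5 of 10 genes, and SCN9A fell. SCN9A (chr2:166195185-166376001), the channel of pain-sensing neurons, read 2.29 and 1.90 CPM against 4.71 and 4.15 CPM. Its log2 fold change was -1.08 ± 0.15 (edgeR adjusted p = 6.17e-06). The 2 genotypes did not overlap, which was a condition for naming SCN9A among the largest falls. With the GC offset the SCN9A value was -0.43, and without wild-type replicate 1 as well it was -0.33 and not called.

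SCN8A, which is known from neurons and from macrophages, had the highest mean level per kilobase of the sodium channel alpha subunits, 1.39 CPM per kilobase. It was not called, with 21.3 and 18 CPM in F133V against 21.4 and 22.2 CPM in wild-type, but without F133V replicate 1 it was called lower (-0.31). SCN2A was not called without the GC offset (0.54 ± 0.32) but called with it (1.24). SCN4B is a sodium channel beta subunit, a class of single-pass proteins that also act in cell adhesion, and it rose. SCN4B read 1.12 and 0.77 CPM against 0.28 and 0.53 CPM, a log2 fold change of 1.23 ± 0.33. The GC-adjusted value of SCN4B was 1.06. Its call was kept in 10 of 15 alternatives that gave an adjusted p, and the lowest value was 0.66. Among those that lost it were DESeq2 (1.20) and the fits without F133V replicate 1 (0.90) or wild-type replicate 1 (0.82).

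The epithelial sodium channel is an amiloride-sensitive channel that takes up sodium at the apical face of epithelia. Its alpha subunit SCNN1A (chr12:6346843-6377730) read 25.1 and 25.5 CPM in F133V and 14.2 and 13.9 CPM in wild-type, a log2 fold change of 0.85 ± 0.08 (edgeR adjusted p = 3.44e-08; GC-adjusted 0.62). The beta and gamma subunits SCNN1B and SCNN1G had 10 and 3 reads in all, so the partners of the usual channel were at the edge of detection. The delta subunit SCNN1D read 5.75 and 7.45 CPM against 5.20 and 4.62 CPM, and its call (0.42 ± 0.13) was lost in the GC-adjusted fit (0.11), with DESeq2 (0.40), without F133V replicate 2 (0.22) and without wild-type replicate 2 (0.34). SCNM1, the splicing factor, was not called, with 35.6 and 37.7 CPM against 35.1 and 33.0 CPM. In these bulk samples fewer expressing cells and less RNA per cell cannot be told apart.

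Among the members too rare to test, reads were found in both genotypes. These 49 genes had from 1 to 32 reads in all, with a median of 6, and 24 had more reads in F133V, 20 more in wild-type and 5 the same number. Their reads summed to 120 and 101 in F133V and to 92 and 96 in wild-type. The 25 genes at 0 reads included KCNJ2 and KCNJ16 of the inward rectifiers, SCN10A, the sodium channel of sensory neurons, KCNB2, KCNK4 and the skeletal muscle gamma subunit CACNG1. Where exons are not shared with another gene, a count of 0 allows a level of up to 3 reads in a library, which is 0.0757 to 0.0853 CPM before TMM scaling, for counting error only. That limit does not apply to KCNA6 and KCNK4, which share 100% and 61.9% of their exonic bases with another gene of the same strand, or in full to KCNJ13 and KCNMB2 (33.4% and 32.1%), since reads over more than 1 gene are tallied as ambiguous.

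Tested members that rose were found at every level. Of tested members with a mean below 1 CPM, 8 of 17 were called higher, beside 18.5% of all tested genes at that level. A gene this low can pass the filter through the genotype where it is higher, so this count does not describe channel genes of low level as a whole. From 1 to 5 CPM the count was 17 of 26, beside 30.6%. From 5 to 25 CPM it was 17 of 19, beside 29.9%, and at 25 CPM and more it was 2 of 5, beside 28%. The summed level of all members was 646 and 667 CPM in F133V and 517 and 517 CPM in wild-type, so the F133V libraries lay above both wild-type libraries.

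Members that rose had a median transcript GC content of 59.1%, those that fell 38.0% and those not called 48.9%. In the highest of the 10 bins of GC content, 14 members had a median log2 fold change of 1.03, beside 0.34 for all genes there. In bin 8, counted from the lowest, 16 members had a median of 0.82, beside 0.23. The lowest bin held 6 members with a median of -0.71, beside -0.64, and CACNA2D1, SCN9A and KCNMB3 have transcripts of 37.2%, 38.7% and 35.4% GC. The part of GC content in these differences was not tested apart from the adjusted fit.

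**Figure D4:**
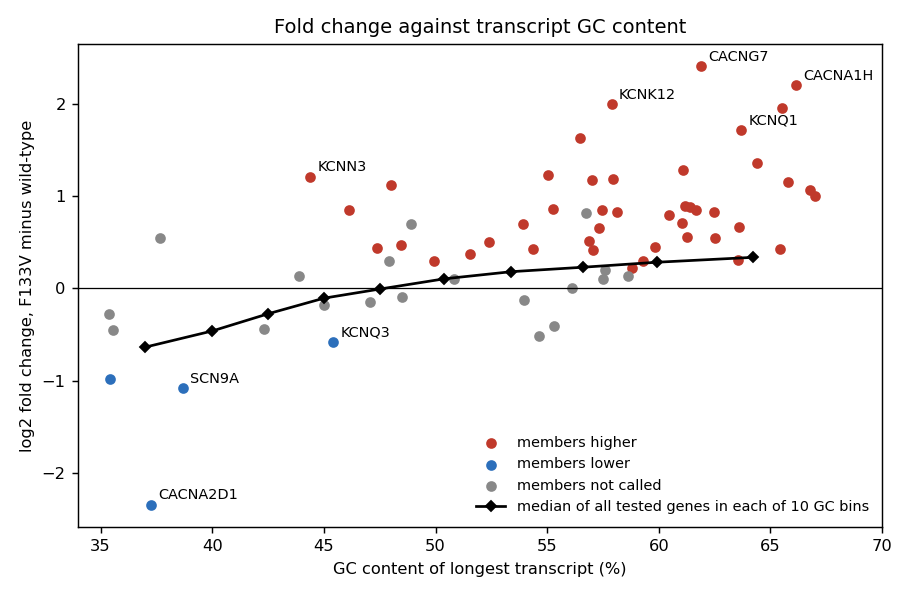
Log2 fold change, F133V minus wild-type and without GC offset, against GC content of the longest transcript for the 67 tested members (points) and the median of all tested genes in each of 10 equal bins of GC content (black line). The line climbs from -0.64 to 0.34, and the members with the largest rises lie above it while CACNA2D1 lies below.

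Promoters of members called in opposite directions were set side by side. RefSeq promoters on GRCh38.p14, here the 250 bases before a transcription start, were found for 100 members (152 promoters) and not for 41, among them CACNA1H. Shown are 3 genes that rose in both fits and both genes that fell in both fits and have an entry. They are CACNA1B (chr9:137877532-137877781, plus strand), CACNG6 (chr19:53991387-53991636, plus strand) and KCNJ4 (chr22:38444029-38444278, minus strand), which rose, and CACNA2D1 (chr7:82443957-82444206, minus strand) and SCN9A (chr2:166375945-166376194, minus strand), which fell. The KCNJ4 window lies inside the gene's annotated span, before an internal start in RefSeq. Each is printed from 5′ to 3′ on the gene's strand. Letters in capitals mark matches to a GC box (GGGCGG) or an AP-1 site (TGANTCA) on either strand, and overlapping matches run together.
CACNA1B: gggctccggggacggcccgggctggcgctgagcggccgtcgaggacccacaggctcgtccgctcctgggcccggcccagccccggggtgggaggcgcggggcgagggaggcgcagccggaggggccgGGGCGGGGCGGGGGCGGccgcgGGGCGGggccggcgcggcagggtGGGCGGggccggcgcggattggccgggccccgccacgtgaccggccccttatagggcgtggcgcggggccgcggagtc
CACNG6: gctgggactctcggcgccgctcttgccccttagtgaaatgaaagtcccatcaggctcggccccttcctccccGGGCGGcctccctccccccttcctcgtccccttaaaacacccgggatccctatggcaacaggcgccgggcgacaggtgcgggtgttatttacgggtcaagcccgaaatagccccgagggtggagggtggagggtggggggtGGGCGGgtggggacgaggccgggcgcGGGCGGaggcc
KCNJ4: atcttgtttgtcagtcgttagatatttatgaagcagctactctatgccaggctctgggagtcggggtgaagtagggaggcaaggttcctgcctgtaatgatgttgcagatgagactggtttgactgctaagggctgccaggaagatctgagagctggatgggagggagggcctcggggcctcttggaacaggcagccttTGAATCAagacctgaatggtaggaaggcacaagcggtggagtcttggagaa
CACNA2D1: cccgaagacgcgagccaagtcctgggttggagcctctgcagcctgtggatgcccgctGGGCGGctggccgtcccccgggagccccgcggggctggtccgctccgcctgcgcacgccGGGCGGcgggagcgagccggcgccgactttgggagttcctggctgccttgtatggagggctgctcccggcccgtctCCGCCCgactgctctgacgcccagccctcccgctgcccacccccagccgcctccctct
SCN9A: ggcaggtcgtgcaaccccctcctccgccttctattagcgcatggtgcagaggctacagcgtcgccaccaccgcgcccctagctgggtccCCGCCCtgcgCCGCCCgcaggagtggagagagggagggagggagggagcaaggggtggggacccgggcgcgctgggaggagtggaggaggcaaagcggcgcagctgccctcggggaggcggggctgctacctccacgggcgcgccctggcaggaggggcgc

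These 5 windows held 39, 21, 4, 27 and 22 CpG dinucleotides in the order shown, beside a median of 16 over 22198 promoters of protein-coding genes. GC boxes stood in the windows of CACNA1B (5 matches) and CACNG6 (3), which rose, and in those of CACNA2D1 (3) and SCN9A (2), which fell, so the motif was on both sides. KCNJ4 had none and had 1 match to the AP-1 motif. A GC box was found in 53.7% of all 22198 promoters and in 43 of 67 promoters of tested members (64.18%). Among these it stood in 23 of 34 promoters of members higher in both fits (67.65%) and in 2 of 2 of members lower in both fits. Of promoters of members at 0 reads, 9 of 30 had a match. The AP-1 motif was found in 5.36% of all promoters and in 2 of the 34, a TATA box (TATAAA) in 9.0% and 2, and a cyclic AMP response element (TGACGTCA) in 2.01% and 1. A match is a run of letters and not a measured binding site.

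Cation channels outside these prefixes had more rises than falls in both fits, whereas the balance for pumps, partners and calcium signalling genes depended on the GC offset. Of 70 related cation channels, such as TRP, HCN, purinergic and intracellular calcium channels, 40 were tested. Of these, 22 rose and 6 fell, beside 27.2% and 27.6% of all tested genes, with a median log2 fold change of 0.33. With the GC offset 22 rose and 6 fell as well, but not all were the same genes. Called alike in both fits were 18 higher and 3 lower, beside 17.4% and 14.7% of all tested genes. P2RX4, an ATP-gated channel, rose from 20.8 and 21.7 CPM to 37.2 and 38.1 CPM (0.83 ± 0.08). TRPM7, a magnesium and calcium channel with a kinase domain, fell from 77.4 and 77.2 CPM to 38.8 and 31.9 CPM (-1.13 ± 0.08, GC-adjusted -0.52). PKD2, the polycystin channel, fell from 29.1 and 29.4 CPM to 16.4 and 16.2 CPM (-0.85 ± 0.08, GC-adjusted -0.68).

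Of 45 channel partners, regulators and ion pumps, 32 were tested, 12 rose and 12 fell (GC-adjusted 12 and 6), with a median of 0.11. Called alike in both fits were 8 higher and 6 lower, and 2 turned direction. RRAD, a small GTPase that binds calcium channel beta subunits, rose from 2.52 and 3.5 CPM to 8.09 and 9.44 CPM (1.55 ± 0.14, GC-adjusted 1.19, and 0.95 without wild-type replicate 1 as well). NEDD4, a ubiquitin ligase of the family that acts on the epithelial sodium channel, fell from 326 and 326 CPM to 162 and 137 CPM (-1.12 ± 0.07, GC-adjusted -0.46). ATP2B1, a plasma membrane calcium pump, fell from 55.9 and 57.7 CPM to 33.0 and 27.3 CPM (-0.91 ± 0.08, GC-adjusted -0.27). REST, a repressor of neuronal genes chosen for mention after its values were seen, read 34.7 and 30.7 CPM against 51.0 and 56.9 CPM (-0.72 ± 0.08, GC-adjusted -0.18). All 19 genes of calcium, calcineurin and calmodulin kinase signalling were tested, 5 rose and 7 fell (GC-adjusted 6 and 3), with a median of -0.07. Of these genes, 4 were higher and 3 lower in both fits, and 1 turned direction. CREB1 (-0.79 ± 0.07) and PPP3R1 (-0.46 ± 0.07), a transcription factor and the calcineurin regulatory subunit, were called lower without the GC offset but not with it, and NFAT5, the osmotic stress factor, in both fits (-0.77 ± 0.07, GC-adjusted -0.21), though not with the offset and without wild-type replicate 1 (-0.14).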

How the data were processed

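RNA was extracted and sequenced as single reads of 75 bases, per the labels' protocols. Values are whole read counts, deposited as 1 table per library and not normalized. TopHat2 2.0.10, HTSeq 0.6.0 and build hg38 are named in the submitters' processing notes. The sources used here do not give the annotation release, the strand setting of the counting or whether poly-A RNA was selected. Overlapping and antisense genes may therefore share reads. Between 23.7% and 26.6% of reads fell in the counter's tallies outside genes and stayed out of library sizes.

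Symbols were matched for 60444 of 60614 IDs. Positions, lengths and GC content came from GENCODE 29, which need not be the authors' release. The test was edgeR 4.0.16 in R 4.3.3: filterByExpr, TMM, quasi-likelihood F-test, two-sided, Benjamini-Hochberg over all 17539 tested genes, threshold 0.05; each SE is the fold change over the square root of F. The offset for GC content and length was smoothed per library with mgcv 1.9.3 and refitted on 17299 genes. Alternatives were other scalings, filters, DESeq2 1.42.0, a replicate block and leaving out each library. The fit was tested on simulated data.

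Members and gene lists were chosen with earlier results of these data known. Named genes were CACNA1H, up to 12 largest rises and 12 largest falls among members called alike in both fits with groups that did not overlap, the 2 members of highest mean CPM per kilobase in each role, 3 called genes of lowest adjusted p per list, and SPOP. Some genes that the rule named are not reported here.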

Additional observations from a re-analysis of the deposited data

How the results depend on the processing

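Of the 44 members called higher, 26 kept the call under all 16 alternatives that gave an adjusted p, as did 2 of the 4 called lower, and no called member was called in the opposite direction under any. DESeq2 lowered the 44 to 28, with 4 lower, and gave no adjusted p for 1 tested member. Upper-quartile scaling moved the median of all genes from 0.02 to 0.13, called 6462 genes higher and 3831 lower in place of 4763 and 4841, and gave 48 and 4 members. Scaling by relative log expression gave 41 and 4, no filter 45 and 5, and a filter at 1 CPM 37 and 3.

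Leaving out 1 library with no offset gave 34 to 42 members higher and 4 to 5 lower, and with the offset 34 to 38 higher and 2 to 5 lower. The 9604 calls over all genes became 6384 without wild-type replicate 1 and 6337 without wild-type replicate 2. Over all such fits the range was 6337 to 10856. Calls ranged from 4 to 14 of calcium signalling genes (12 with all libraries), being 7, 4 and 7 with the offset and without F133V replicate 2, wild-type replicate 1 or wild-type replicate 2. They ranged from 13 to 25 of partners and pumps (24 with all libraries), being 13 without wild-type replicate 1, and 13, 15 and 13 with the offset and without F133V replicate 1, wild-type replicate 1 or wild-type replicate 2. The lone library is assumed to vary like the other genotype.

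Some uncalled or weakly called members changed sign. Over all alternatives CACNB4 ranged from -0.62 to 0.47, KCNT2 from -0.53 to 0.62, CACNA1D from -0.32 to 0.76 and SCN4A from -0.46 to 0.61, without being called in any. KCNJ14 ranged from -0.346 to 0.0486 without 1 library, the latter without F133V replicate 1, and KCNIP3 was -0.0313 with the offset and without that library. SCN8A was 0.0796 and 0.0161 with the offset and without F133V replicate 2 or wild-type replicate 2. SCNM1 was -0.0211 with the offset, and with the offset -0.0343, -0.0423 and -0.0578 without F133V replicate 1, F133V replicate 2 or wild-type replicate 2. The cause was not tested.

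Replicate numbers were shared between genotypes, but same-numbered libraries did not deviate together (correlation across genes -0.05, or 0.0045 with the offset), so they are taken to share only a number. With the replicate block 43 members were higher and 4 lower and 9365 genes were called in all. With the replicate block and offset these were 37, 4 and 9080, and SCNM1 was -0.0207. Depth limits the 49 members with too few reads to test.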

Other observations

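The same symbol prefixes also named 38 rows that are no members, mostly antisense, intronic or overlapping noncoding RNAs. Of these, 23 had 0 reads, 5 were tested and 4 were called without the GC offset. KCNQ1OT1, the noncoding RNA that starts inside KCNQ1 on its other strand, had 78 and 57 reads in F133V and 119 and 104 in wild-type, a log2 fold change of -0.67 ± 0.17 (edgeR adjusted p = 0.00270; GC-adjusted -0.41), opposite in sign to KCNQ1. KCNIP2-AS1 had 67 and 54 reads against 33 and 37, a log2 fold change of 0.84 ± 0.22 (GC-adjusted 0.57), and shares 48.6% of its exonic bases with KCNIP2. KCNK15-AS1 had 33 and 29 reads against 21 and 14 (0.88 ± 0.29, GC-adjusted 0.78). KCNJ5-AS1 had 353 and 366 reads against 336 and 292 and was called without the GC offset but not with it (0.25 ± 0.10, GC-adjusted 0.17). KCNH1-IT1 was not called (0.45 ± 0.19). KCNK15-AS1 shares 20.9% of its exonic bases with other genes and KCNQ1OT1 1.2%, while KCNJ5-AS1 and KCNH1-IT1 share none. Because strand use in the counting is not known, reads of these RNAs and of the channel genes they overlap may not all be told apart.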
